A study of Mus musculus with 6 samples.

Results

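The mouse mitochondrial genome supplied 37 of the 55536 genes in the islet count table, taken as every gene whose symbol starts with mt-. They comprised 13 protein-coding genes, 2 ribosomal RNA genes and 22 transfer RNA genes, all annotated on chromosome MT of GRCm38. The libraries came from polyA RNA of whole pancreatic islets of C57B1/6J mice, 3 from control mice (Klf4+/+;Gcg-iCre) and 3 from knockout mice (Klf4fl/fl;Gcg-iCre). Both groups carried Gcg-iCre, in which Cre recombinase is made from the glucagon gene and so acts in alpha cells, and they differed in whether the Klf4 alleles were floxed. The study asked what the transcription factor KLF4 regulates in alpha cells in vivo, and age and sex are not in the labels. Since whole islets were sequenced, the mitochondrial transcripts measured here came from beta, alpha, delta and non-endocrine cells together, and a smaller number of cells of a type cannot be told apart from less RNA per cell.

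Mitochondrial DNA is a compact circle whose strands are each transcribed as long precursors. Transfer RNAs punctuate the coding genes, and their excision by RNase P and ELAC2 frees the messenger and ribosomal RNAs, most of which then receive a short poly(A) tail. The proteins are core subunits of respiratory complexes I, III, IV and of ATP synthase (complex V), and in beta cells the ATP that the chain supports couples glucose to insulin release. Pieces of mitochondrial DNA have also been copied into nuclear chromosomes during evolution, and reads from a copy and from its source can be hard to assign.

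Members whose sequence recurs in a nuclear gene can share reads with it, so the clearest pairs are shown first. Each pair below sets a member beside its copy over the same 60 bases, with differing bases in capitals and both written 5′ to 3′ along the member. The start of mt-Co2 (chrMT:7013-7072, + strand) was identical to that of Gm28661 (chr1:24615506-24615565, - strand). The start of mt-Nd3 (chrMT:9459-9518, + strand) differed from Gm28438 (chr1:24613060-24613119, - strand) at 1 base, T3C, counted from the 5′ end of mt-Nd3. A stretch of mt-Co1 (chrMT:5787-5846, + strand, bases 460 to 519 of the gene) differed from a more divergent copy, Gm13340 (chr2:22589129-22589188, - strand) at 4 bases, and it is the 60-base window of that pair with the most differences.
mt-Co2: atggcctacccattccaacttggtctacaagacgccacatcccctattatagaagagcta
Gm28661: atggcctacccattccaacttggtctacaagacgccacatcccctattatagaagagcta
mt-Nd3: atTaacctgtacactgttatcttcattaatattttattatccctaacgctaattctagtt
Gm28438: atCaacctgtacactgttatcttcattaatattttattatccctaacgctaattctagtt
mt-Co1: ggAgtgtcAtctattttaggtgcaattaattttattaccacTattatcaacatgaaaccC
Gm13340: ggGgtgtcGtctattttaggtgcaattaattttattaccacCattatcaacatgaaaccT

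The chromosome 1 copies formed a near-perfect image of a block of the mitochondrial genome. Aligned copies of 7 members lay on the - strand of chromosome 1 between bases 24611535 and 24616188, a span of 4654 bases, while the matching part of MT ran from 6390 to 11042, a span of 4653 bases. From the end of mt-Co1 the order was Gm29216 (mt-Co1, 483 bases at 99.8% identity, with A1066T as the difference), Gm28661 (mt-Co2, 681 bases at 100%) and Gm10925 (mt-Atp6, 678 bases at 100%). Then followed Gm28437 (mt-Co3, 783 bases at 100%), Gm28438 (mt-Nd3, 345 bases at 99.7%), Gm10222 (mt-Nd4l, 294 bases at 100%) and Gm28439 (876 of the 1378 bases of mt-Nd4 at 100%). The distances between neighbouring copies equalled those between the members in 5 of 6 gaps, for example 140 bases where mt-Ts1 and mt-Td lie and 233 bases where mt-Tk and mt-Atp8 lie. In the gap that holds mt-Tr the distances were 74 and 73 bases. No annotated transcript copies mt-Atp8 in its gap, and the chromosome 1 bases of the gaps were not compared, since the comparison covered annotated transcripts and not the nuclear genome.

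The levels of the 13 messenger RNAs formed separate tiers that lined up with this block. Levels are given as normalized counts (counts divided by each library's DESeq2 size factor) per kb of gene, as the mean of the 6 libraries with the range over them. The highest was mt-Co1, the catalytic subunit of complex IV, at 546762 (492677 to 584643), next to mt-Cytb, the cytochrome b of complex III, at 499817 (434653 to 565953). The complex I subunit genes mt-Nd1 at 339611, mt-Nd5 at 318380.0, mt-Nd2 at 260329 and mt-Nd4 at 175375 came below. In this order each gene exceeded the next in all 6 libraries. The ranges over libraries overlapped for mt-Co1 and mt-Cytb, for mt-Nd1 and mt-Nd5 and for mt-Nd5 (272444 to 358986) and mt-Nd2, and they were apart for mt-Cytb and mt-Nd1 and for mt-Nd2 (233318 to 304215) and mt-Nd4 (152283 to 196606). These 6 genes held 99.66% to 99.72% of the counts of the 13 protein-coding genes in each library.

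The other + strand messenger RNAs were counted at far lower levels. Complex IV subunit genes mt-Co2 (1836 per kb) and mt-Co3 (1393), the ATP synthase genes mt-Atp6 (1203) and mt-Atp8 (534), and the complex I genes mt-Nd3 (889) and mt-Nd4l (459.7) made up the lowest tier. The lowest of the 6 high genes was 95.5 times the highest of these 6 per kb, although mt-Co1, mt-Co2 and mt-Co3 encode subunits of one enzyme complex. The 6 low genes are exactly those that lie whole within the MT span matched on chromosome 1. For 5 of them, 97.6% to 99.9% of all 100-base windows of the transcript also occurred in another gene's transcript. mt-Atp8 shared no 100-base window with an annotated transcript. The share was 60.8% for mt-Nd4, 30.8% for mt-Co1, 3.19% for mt-Nd2 and 0% for the other members of at least 100 bases.

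**Figure D1:**
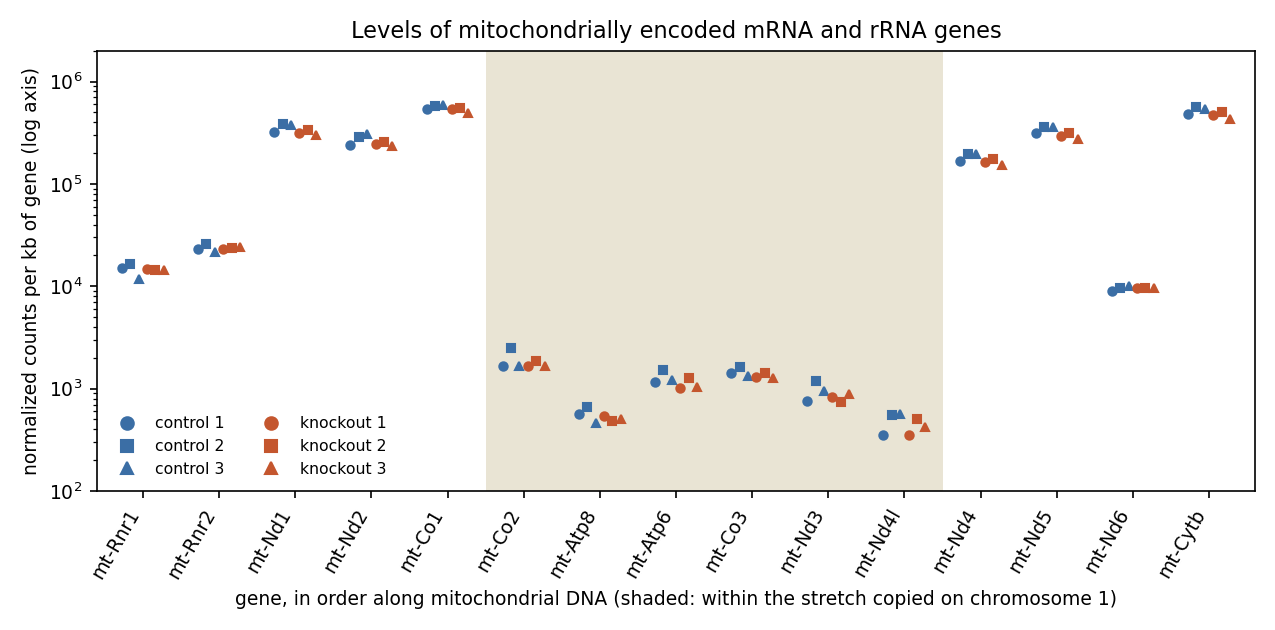
Normalized counts per kb of gene (log axis) for the 13 protein-coding and 2 ribosomal RNA genes in order along mitochondrial DNA, with 1 point per library (blue control, orange knockout, marker shape for the replicate number). The 6 shaded genes, which lie whole within the span matched on chromosome 1, have means of 460 to 1836 per kb, and the 6 highest genes have means of 175375 to 546762 per kb in the same libraries.

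**Figure D2:**
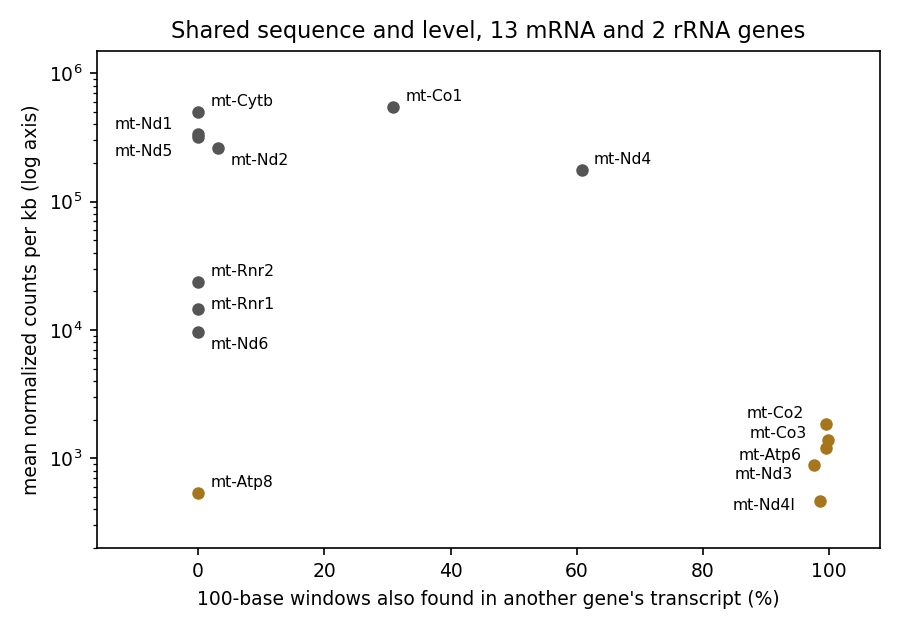
Share of each gene's 100-base windows that also occur in another gene's annotated transcript (x axis, %) against the mean normalized count per kb over 6 libraries (y axis, log), 1 point per gene, with the 6 genes inside the chromosome 1 block in brown. mt-Co2, mt-Co3, mt-Atp6, mt-Nd3 and mt-Nd4l sit at the right and low, and mt-Atp8 is as low at 0%.

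The chromosome 1 copies were counted at the level of the low members. The 7 copies had 61 to 1593 counts in a library and means of 247 to 1826 normalized counts per kb, next to 460 to 1836 for the 6 low members. Gm10925 had 1031 to 1593 counts and exceeded mt-Atp6 (710.0 to 1076) in all 6 libraries. Gm10222 had 221 to 283 counts and likewise exceeded mt-Nd4l (106 to 171) in all 6. Gm28661, Gm28437 and Gm28438 were below mt-Co2, mt-Co3 and mt-Nd3 in all 6. The copies of mt-Co1 had far fewer counts than their source, with 758 to 1150.0 for the partial copy Gm29216 and 2100 to 3002 for the full-length chromosome 2 copy Gm13340 against at least 762788 for mt-Co1. How the authors' counting treated reads that map to several places is not given in the sources used here, and its part in these levels was not tested. The counts of mt-Co2, mt-Co3, mt-Atp6, mt-Nd3 and mt-Nd4l, and of their copies, are reported as uncertain, since the counting could have split them. The same holds in part for mt-Nd4 (60.8% of 100-base windows shared) and mt-Co1 (30.8%), whose levels per kb are over the whole gene. Shares and ratios below that use mt-Nd4 or mt-Co1 carry this uncertainty. The count of mt-Atp8 is uncertain too, since the chromosome 1 bases of its gap were not compared.

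None of the 37 members passed the test between genotypes, and the 12 messenger RNAs of the + strand all had slightly lower fitted levels in the knockout. The main test was DESeq2 with an adjusted p below 0.05, and 25 members had the 10 counts over the 6 libraries that entry required, namely 13 protein-coding, 2 ribosomal and 10 transfer RNA genes. DESeq2 called 0 of the 18 members with an adjusted p, against 2.19% of all genes with one and 0.657% called lower in the knockout. edgeR called 0 of 25, against 0.115% of all genes. At an unadjusted DESeq2 p below 0.05 there were 6 of 25 members, 4 messenger RNAs lower and 2 transfer RNAs higher in the knockout, where 9.03% of all genes stood. Genotype and sex-linked transcripts cannot be told apart in any of these comparisons, because the 3 controls held 0 counts of 4 Y-linked genes and 73469 to 108994 of Xist while the 3 knockouts held 15756 to 17090 and 12 to 32. The labels do not say that the libraries came from separate animals, so the p-values measure the spread between these samples.

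Among the complex I genes, mt-Nd5 (ENSMUSG00000064367, chrMT:11742-13565) had the smallest p. This gene encodes a proton-pumping subunit of the membrane arm, and its normalized counts were 568776, 651213 and 654790.3 in controls 1 to 3 and 536584, 576049.7 and 496938 in knockouts 1 to 3. Control 1 was the lowest control and lay below knockout 2, so the groups overlapped. The log2 fold change was -0.22 ± 0.09 (SE), or -14.1% with a 95% interval of -23.6% to -3.51%, with a DESeq2 adjusted p of 0.194 and an unadjusted p of 0.0105. mt-Nd4 (chrMT:10167-11544), another pumping subunit, had 232810.4, 270924 and 270425 in controls and 225961, 240036 and 209846 in knockouts. Again knockout 2 exceeded control 1 alone among the controls, and the log2 fold change was -0.20 ± 0.09 with a DESeq2 adjusted p of 0.306. mt-Nd1 (chrMT:2751-3707), which lines the quinone site, had 310224, 371571 and 356648 in controls and 298646, 322267 and 290689 in knockouts, a log2 fold change of -0.19 ± 0.09 with a DESeq2 adjusted p of 0.342. For mt-Nd2 (chrMT:3914-4951) the values were 247698, 299321 and 315775 in controls and 252320.1, 264033 and 242184 in knockouts. Here knockouts 1 and 2 both exceeded control 1, and the log2 fold change was -0.19 ± 0.10 with a DESeq2 adjusted p of 0.443.

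A similar order of libraries held for the high genes of complexes III and IV. mt-Cytb (chrMT:14145-15288) had 551289.6, 647450.3 and 620853 normalized counts in controls and 540446, 573461 and 497243 in knockouts. Its log2 fold change was -0.18 ± 0.09 with a DESeq2 adjusted p of 0.403. mt-Co1 (ENSMUSG00000064351, chrMT:5328-6872) had 828357, 893344 and 903274 in controls and 825566, 856761 and 761186 in knockouts. This was the smallest difference of the + strand messenger RNAs, -0.10 ± 0.07 on the log2 scale with a DESeq2 adjusted p of 0.679. In all 6 high genes control 1 was the lowest control, knockout 3 the lowest knockout and knockout 2 the highest knockout.

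**Figure D3:**
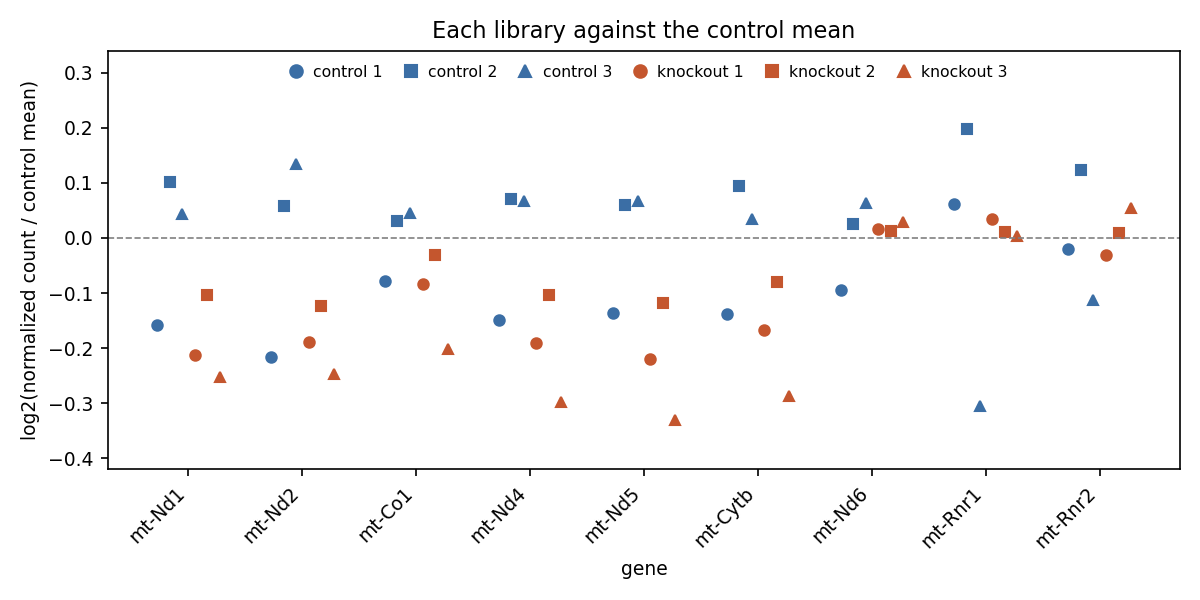
The log2 ratio of each library's normalized count to the control mean (y axis) for the 6 highest messenger RNAs, mt-Nd6 and the 2 ribosomal RNAs (x axis), with 1 point per library. Control 1 (blue circle) sits among the knockout points for the 6 high messenger RNAs, and knockout 3 (orange triangle) is the lowest point of each.

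Control replicate 1 decided whether any member was called. Without it, DESeq2 called mt-Nd2 (log2 fold change -0.28, adjusted p 0.00676), mt-Nd1 (-0.26, 0.0265), mt-Nd5 (-0.28, 0.0348) and mt-Nd4 (-0.27, 0.0422) lower in the knockout, 4 members where 0.908% of all genes with an adjusted p were called lower. mt-Cytb and mt-Co1 were not called there, at -0.24 (DESeq2 adjusted p 0.109) and -0.14 (0.410). Without any other single library 0 members were called. Across all 6 omissions the log2 fold change ran from -0.28 to -0.17 for mt-Nd5, -0.27 to -0.15 for mt-Nd4, -0.26 to -0.13 for mt-Nd1 and -0.24 to -0.12 for mt-Cytb. It ran from -0.28 to -0.11 for mt-Nd2, nearest to 0 without control 3, and from -0.14 to -0.06 for mt-Co1, nearest to 0 without knockout 3. The edgeR adjusted p on all libraries was 0.601 for mt-Nd5, 0.609 for mt-Nd4, 0.642 for mt-Nd1 and 0.670 for mt-Nd2.

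The low messenger RNAs had negative fold changes of similar size with wider errors. mt-Atp6 (chrMT:7927-8607), the proton channel subunit of ATP synthase, had 791, 1033 and 833 normalized counts in controls and 686, 863 and 709 in knockouts, with overlapping groups and a log2 fold change of -0.24 ± 0.15 (DESeq2 adjusted p 0.606). mt-Co2 (chrMT:7013-7696), which receives electrons from cytochrome c, had 1146, 1693 and 1135 in controls and 1143, 1283 and 1138 in knockouts. In mt-Co2, control 2 stood above the other 5 libraries, and the log2 fold change of -0.16 ± 0.16 turned to 0.06 without it. mt-Co3 (chrMT:8607-9390) had 1122, 1272 and 1031 in controls and 1028, 1111 and 989.9 in knockouts. The complex I genes mt-Nd3 (chrMT:9459-9806) and mt-Nd4l (chrMT:9877-10173) followed. For mt-Nd3 the values were 263, 411 and 327 in controls and 287, 259 and 309 in knockouts. For mt-Nd4l they were 105, 164 and 169.7 in controls and 104, 152 and 125 in knockouts. mt-Atp8 (chrMT:7766-7969), whose reading frame runs into mt-Atp6, had 114, 135 and 93.4 in controls and 109.6, 98.0 and 103 in knockouts. These 4 genes overlapped between groups and had log2 fold changes of -0.13, -0.23, -0.21 and -0.14 in that order, with DESeq2 adjusted p from 0.787 to 0.937. With 1 library left out, the log2 fold change ran from -0.34 (without knockout 2) to -0.11 (without control 2) for mt-Atp6 and from -0.20 (without control 3) to -0.05 (without control 2) for mt-Co3. It ran from -0.37 (without control 1) to -0.05 (without control 2) for mt-Nd3 and from -0.27 (without control 3) to -0.0044 (without control 2) for mt-Atp8. For mt-Nd4l it was -0.40 and -0.36 without control 1 or knockout 2, and -0.12, -0.09 and -0.08 without control 2, control 3 or knockout 1. For mt-Co2 it was -0.25 and -0.26 without control 1 or control 3. The 7 chromosome 1 copies had log2 fold changes from -0.68 to -0.11, with DESeq2 adjusted p from 0.289 to 0.823. Since the copies may share reads with the members, their sign is not a separate observation. Over the 12 + strand messenger RNAs the log2 fold changes ran from -0.24 to -0.10 with a median of -0.19, against a median of -0.01 over the 17797 genes with an adjusted p, of which 51.6% were negative. None of the 16 members with a mean of at least 50 had every knockout below every control, which 8.54% of all such genes did.

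mt-Nd6, the messenger RNA of the - strand, had a fold change close to 0, and whether it differed from those of the + strand genes was not tested. It encodes a complex I subunit (chrMT:13552-14070, - strand), overlaps mt-Nd5 by 14 bases on the opposite strand, and had 4637, 5038 and 5169 normalized counts in controls and 5006, 4989 and 5046 in knockouts. The 3 knockouts lay within the control range, and the log2 fold change was 0.02 ± 0.08 with a DESeq2 adjusted p of 0.974. Its level per kb, 9597, was between those of the high and low + strand genes. The strand setting of the authors' counting is not given in the sources used here, so reads of overlapping genes on opposite strands may not be separated.

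The ribosomal RNAs also had nearly equal group means. mt-Rnr1, the small-subunit 12S RNA (chrMT:70-1024), had 14373, 15804 and 11147 normalized counts in controls and 14103, 13881 and 13813 in knockouts. The controls spread widely around 3 closely spaced knockouts, and the log2 fold change was 0.02 ± 0.12 (DESeq2 adjusted p 0.984). mt-Rnr2, the large-subunit 16S RNA (chrMT:1094-2675), had 36765, 40609 and 34473 in controls and 36503, 37519 and 38698 in knockouts, with overlap and a log2 fold change of 0.01 ± 0.08 (DESeq2 adjusted p 0.984). Per kb, mt-Rnr2 stood at 23658 and mt-Rnr1 at 14506, both below the 6 high messenger RNAs. The libraries were made from polyA RNA, so these levels do not measure the abundance of ribosomal RNA in mitochondria. The signs of both ribosomal genes and of mt-Nd6 reversed when single libraries were left out.

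**Figure D4:**
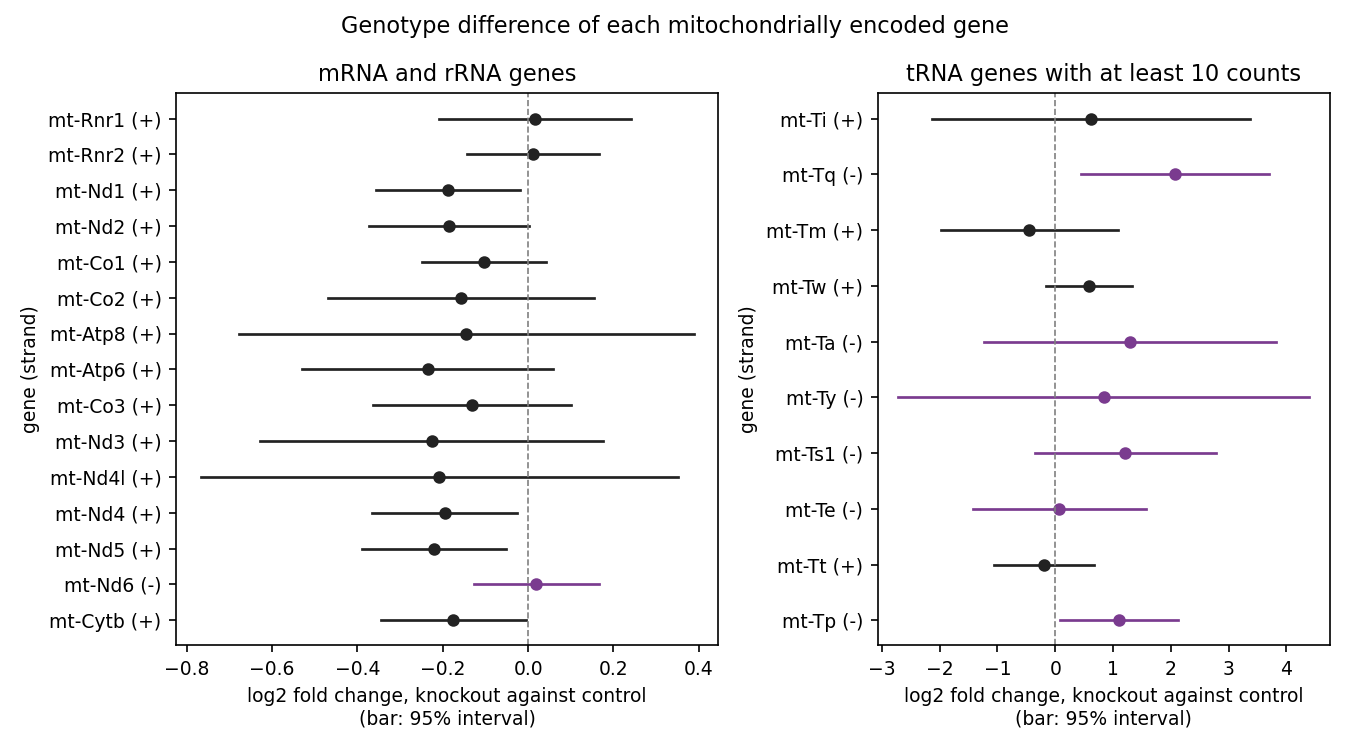
The log2 fold change of knockout against control (x axis, points) with 95% intervals (bars) for each member with at least 10 counts (y axis, strand in brackets, purple for the - strand), messenger and ribosomal RNAs at left and transfer RNAs at right on a wider axis. The 12 + strand messenger RNAs lie between -0.24 and -0.10, the ribosomal RNAs and mt-Nd6 lie at 0.01 to 0.02, and the 6 - strand transfer RNAs lie between 0.07 and 2.08 with wide intervals.

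Transfer RNAs were counted at trace levels, and the summed counts of the - strand members were higher in every knockout than in every control. The libraries were made from polyA RNA, so these counts do not measure the abundance of mature transfer RNA. Whether the reads came from transfer RNAs or from longer precursors was not tested. Of the 22 genes, 10 had 0 counts in all 6 libraries, which at a limit of 3 counts allows up to 0.0272 to 0.0296 CPM (counts scaled to a library total), and 12 were below 10 counts in total. mt-Tw, the tryptophan transfer RNA (chrMT:4950-5016), was the most counted, with 39, 79 and 99 raw counts in controls and 120, 90 and 124 in knockouts. Its groups overlapped and its log2 fold change was 0.59 ± 0.38 (DESeq2 adjusted p 0.614), from 0.28 without control 1 to 0.94 without control 3. mt-Tp, the proline transfer RNA of the - strand (chrMT:15356-15422), had 18, 17 and 17 counts in controls and 48, 25 and 41 in knockouts. Every knockout exceeded every control, and the log2 fold change was 1.10 ± 0.52 (DESeq2 adjusted p 0.372, unadjusted p 0.0348). mt-Tq, the glutamine transfer RNA of the - strand (chrMT:3772-3842), had 4, 8 and 4 counts in controls and 17, 12 and 39 in knockouts, also without overlap. Its log2 fold change was 2.08 ± 0.83 with an unadjusted DESeq2 p of 0.0122, and DESeq2 gave no adjusted p at this level. With 1 library left out, the log2 fold change of mt-Tq ran from 1.42 (without knockout 3) to 2.45 (without control 2).

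The transfer RNAs other than mt-Tw were chosen for description after their values were seen. mt-Ts1, a serine transfer RNA of the - strand, had 7, 4 and 10 counts in controls and 17, 12 and 21 in knockouts. Its groups did not overlap, and its log2 fold change was 1.21 ± 0.80. The other - strand members mt-Te, mt-Ta and mt-Ty had 0 to 21 counts in a library and overlapped, with log2 fold changes of 0.07, 1.295 and 0.84. With 1 library left out, mt-Ta ran from 0.04 (without knockout 2) to 2.38 (without control 2) and mt-Ty from 0.25 (without control 1) to 1.65 (without control 3), and mt-Te changed sign. Thus 3 of the 9 members with a mean below 50 had every knockout above every control, which 6.11% of all genes tested at such means did. mt-Tt, the threonine transfer RNA of the + strand, had 38, 44 and 51 counts in controls and 28, 41 and 48 in knockouts and a log2 fold change of -0.20 ± 0.44 (DESeq2 adjusted p 0.948). On the same strand, the methionine transfer RNA mt-Tm had 7 to 29 counts and the isoleucine transfer RNA mt-Ti 0 to 7, with overlap and log2 fold changes of -0.45 ± 0.78 and 0.61 ± 1.40. The sign of mt-Tm, like that of mt-Tt, reversed with 1 library left out, and mt-Ti ran from 0.02 (without control 2) to 1.41 (without control 3). The 2 members between 1 and 9 counts in total were mt-Tv, with 6, and mt-Tl1, with 2. Summed by strand, - strand transfer RNAs had 42, 49 and 52 counts in controls and 102, 78 and 127 in knockouts, and + strand transfer RNAs had 93, 152 and 167 and 180, 141 and 189. The - strand sums were higher in every knockout and the + strand sums overlapped. mt-Tq overlaps mt-Ti by 3 bases and mt-Ts1 overlaps mt-Co1 by 3 bases, each on the opposite strand. On the same strand, mt-Tw overlaps the highly counted mt-Nd2 by 2 bases and mt-Ti overlaps mt-Nd1 by 2 bases. No genotype difference in a transfer RNA passed the threshold in DESeq2 or edgeR.

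As a share of the library, the members' counts were lower in all 3 knockouts. They took 2.76%, 3.05% and 2.96% of counts in controls 1 to 3 and 2.63%, 2.72% and 2.50% in knockouts 1 to 3, or 2.92% ± 0.148 against 2.62% ± 0.113 (SD, n = 3 each), a difference of -0.302 points. The groups were separated by the gap between control 1 and knockout 2, and no test is given, since it would be a score over the members. With size factors in place of library totals the values were 2.68%, 3.06% and 3.04% against 2.62%, 2.77% and 2.45%, and the groups overlapped. Leaving Ins1, Ins2 and Gcg out of the totals gave 3.49%, 3.98% and 3.79% against 3.34%, 3.47% and 3.18%, without overlap. Ribosomal RNA genes took 0.0488% ± 0.00577 in controls and 0.0494% ± 0.00160 in knockouts. Transfer RNA genes took 1.32, 1.84 and 2.16 CPM in controls and 2.56, 2.13 and 3.08 in knockouts, with overlap. The 95% Wilson half-width was at most 0.00330 points for the total share and 0.340 CPM for transfer RNA, and covers counting error only.

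**Figure D5:**
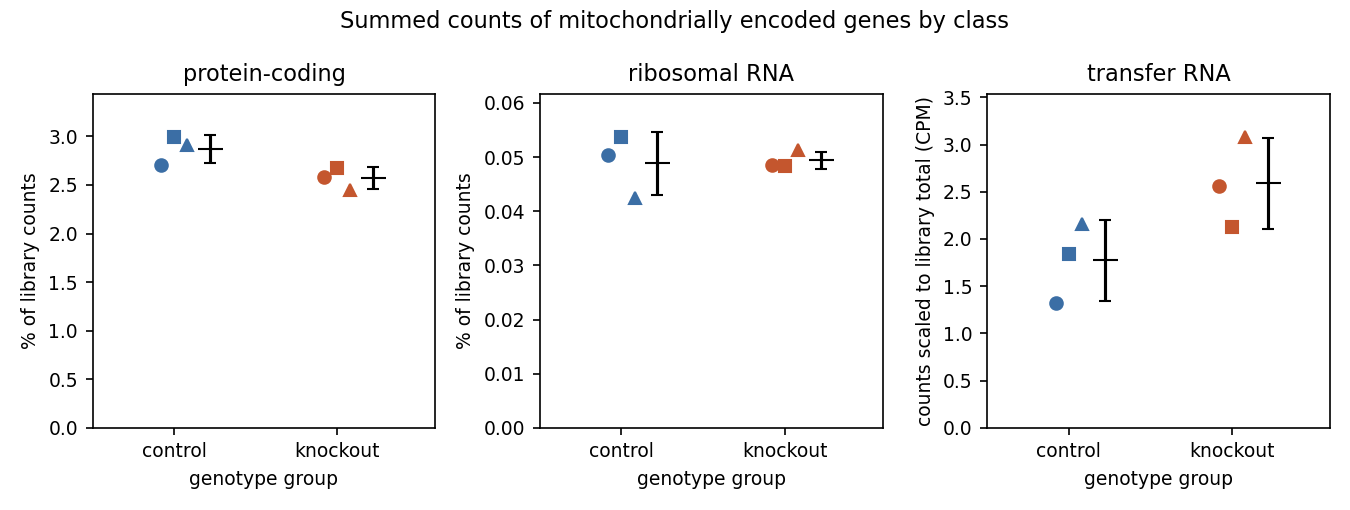
Summed counts of the 13 protein-coding genes and of the 2 ribosomal RNA genes (% of library counts) and of the 22 transfer RNA genes (counts scaled to the library total, CPM), with 1 point per library by genotype and the mean ± SD (n = 3) in black. The protein-coding points of the knockouts lie below those of the controls, between 2.45% and 2.68% against 2.71% to 2.99%, and the ribosomal and transfer RNA points overlap.

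Within the protein-coding counts the balance between genes differed slightly. mt-Nd5 made up 20.7%, 20.7% and 20.9% of these counts in controls and 20.0%, 20.3% and 19.8% in knockouts, with 0.429 points between the groups. mt-Nd4 made up 8.47%, 8.62% and 8.64% in controls and 8.41%, 8.45% and 8.37% in knockouts, with 0.0261 points between them. mt-Co1 had the opposite sign, with 30.2%, 28.4% and 28.9% in controls and 30.7%, 30.2% and 30.4% in knockouts, but only 0.00185 points separated control 1 from knockout 2. mt-Nd6 made up 0.169%, 0.160% and 0.165% in controls and 0.186%, 0.176% and 0.201% in knockouts. The shares of mt-Nd1, mt-Nd2, mt-Cytb and the 6 low genes overlapped between groups. These shares sum to a fixed total, so they are not independent of each other, and their 95% Wilson half-widths were at most 0.0569 points, more than the gaps for mt-Nd4 and mt-Co1. For mt-Nd6 the gap was 0.00682 points, little more than the largest half-width of its own share, 0.00554 points.

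Ratios between members give the balance without a library total. Per 100 counts of mt-Nd5, its opposite-strand neighbour mt-Nd6 had 0.815, 0.774 and 0.789 counts in controls and 0.933, 0.866 and 1.02 in knockouts, and the groups did not overlap. Per 100 counts of mt-Co1, mt-Nd5 had 68.7, 72.9 and 72.5 in controls and 65.0, 67.2 and 65.3 in knockouts, again without overlap. Among the messenger RNAs mt-Nd5 had the smallest p, while mt-Nd6 and mt-Co1 had small fold changes. These ratios use the same counts as the shares above and add no separate support. How many other pairs of members would separate was not counted. Per 100 protein-coding counts the ribosomal RNAs had 1.86, 1.79 and 1.46 in controls and 1.88, 1.81 and 2.09 in knockouts, with overlap. With 3 libraries against 3, an exact two-sided permutation test cannot give a p below 0.1, and none was used for these ratios.

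Nuclear genes that act on mitochondrial DNA and RNA were grouped in lists by what they do, and their counts are read against the 2.19% of all genes called by DESeq2 (0.657% lower). Of 22 genes for mitochondrial DNA transcription and its upkeep, 0 passed in DESeq2 in either direction and 0 had an unadjusted p below 0.05, with a median log2 fold change of -0.02. The smallest p there belonged to 1700021F05Rik (Mtres1, a mitochondrial transcription rescue factor), at 0.21 ± 0.13 with a DESeq2 adjusted p of 0.553, and Twnk, the mitochondrial DNA helicase, at -0.11 ± 0.10 and 0.781, both with overlapping groups. Of 38 genes for processing and decay of mitochondrial RNA, 0 passed in either direction and 2 had an unadjusted DESeq2 p below 0.05, against 9.03% of all genes, with a median of -0.03. Without control 3 this list had 1 call, higher in the knockout. The smallest p in that list belonged to Trmt10c, a subunit of mitochondrial RNase P, with 1527, 1651 and 1619 normalized counts in controls and 1318, 1314 and 1421 in knockouts. Its groups did not overlap, and its log2 fold change was -0.24 ± 0.09 with a DESeq2 adjusted p of 0.183. Pde12, which removes poly(A) tails from mitochondrial RNA, had 1606, 1706 and 1675 in controls and 1434, 1438 and 1445 in knockouts, with -0.21 ± 0.09 and a DESeq2 adjusted p of 0.250.

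Of 10 nuclear regulators of mitochondrial genes, 9 had an adjusted p, and DESeq2 called 1 higher and 0 lower, against 2.19% of all genes. This was Esrrg, an orphan nuclear receptor, with 2560.0, 1886 and 2308 normalized counts in controls and 3069.5, 3174 and 3006 in knockouts and a log2 fold change of 0.45 ± 0.12 (DESeq2 adjusted p 0.00822, edgeR adjusted p 0.203). Its DESeq2 call was lost when any one of the 3 knockouts was left out, and without knockout 1 1 regulator was called lower. Of 81 nuclear-encoded subunits and assembly partners of the respiratory chain, DESeq2 called 2 lower and 0 higher, against 0.657% of all genes called lower. They were Cox7a2l, which takes part in respiratory supercomplexes (-0.26 ± 0.07, adjusted p 0.0304, edgeR 0.283), and Atpif1, the inhibitor of ATP synthase (-0.27 ± 0.08, adjusted p 0.0431, edgeR 0.259). The count of lower calls in this list was 0 without control 2, knockout 1 or knockout 3, 1 without knockout 2 and 5 without control 1. With all libraries and no filter on low counts it was 1. Negative log2 fold changes were seen for 80 of the 81, against 51.6% of all genes, with a median of -0.11, next to -0.19 for the + strand mitochondrial messenger RNAs. Their summed normalized counts were 479856 to 549399 in controls and 471275 to 490312 in knockouts and overlapped. In a list of 18 nuclear RNAs without poly(A) tails, 13 had at least 10 counts and 6 an adjusted p, and 0 passed in DESeq2 or edgeR, with a median of -0.09 over the 13. Without control 1, and without knockout 2, DESeq2 called 1 gene of this list higher. The smallest p were those of Rn7sk, the 7SK small nuclear RNA, with 538, 444 and 269 in controls and 688, 586 and 1199 in knockouts (0.98 ± 0.43, DESeq2 adjusted p 0.291), and the histone gene Hist1h1c (-0.14 ± 0.07, not past the threshold).

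The libraries held 101277200 to 110243918 counts, and 2564718 to 3333360 of these lay in the members. Klf4 itself had 3148, 2879 and 2015 normalized counts in controls and 2340.4, 2540.1 and 2277 in knockouts (log2 fold change -0.17 ± 0.15, DESeq2 adjusted p 0.774), and the knockouts lay within the control range. Summed levels of several cell type markers moved with genotype, and their part in the members' values was not tested. Summed over 12 alpha cell markers, normalized counts were 4690470.1 to 6465074 in controls and 3549882 to 4277177 in knockouts, with 5 called lower by DESeq2, where 0.657% of all genes were, and 0 by edgeR. Over 12 acinar markers they were 641619 to 1283543 and 1607518 to 2269309.7, with 0 past the threshold in DESeq2 and 11 at an unadjusted p below 0.05, where 9.03% of all genes stood. Over 9 mesenchymal markers they were 83838 to 96859 and 125619.7 to 131116, with 5 called higher by DESeq2 and 3 by edgeR (2.19% and 0.115% of all genes were called in either direction), and over 8 duct markers 37486 to 43341 and 43961 to 49573, with 2 called higher by DESeq2 and 0 by edgeR. Gcg made up most of the alpha cell sum, with a mean of 4571598 of 5377042 in controls and 3109157 of 3803147 in knockouts. The sums of beta, delta, PP, endothelial and immune markers overlapped. DESeq2 called 1 of 13 beta markers lower (Nkx6-1, adjusted p 0.0314), 1 of 9 immune markers higher (Cd68, adjusted p 0.0416) and 0 of the delta, PP and endothelial markers, against 2.19% of all genes in either direction, and edgeR called 0 in these 5 lists. None of the markers in these lists was at 0 in all libraries. On the first principal component, with 54.0% of the variance, controls lay at -25.8, -24.3 and -25.5 and knockouts at 62.5, 20.2 and -6.998, and without knockout 1 mt-Nd5 had a log2 fold change of -0.22 and mt-Co1 of -0.11.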

How the data were processed

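Counts per gene, without normalization, were deposited by the authors as 1 table of 6 libraries, and 0 of its columns were left unused. Per the submitters' processing notes the tools were FastQC, STAR, featureCounts and DESeq2 on mm10, and the file name adds trimming with cutadapt. Versions, strand and multi-mapping settings are not given in the sources used here. All 55536 identifiers and symbols match GENCODE M21 of GRCm38, from which positions, classes and transcripts were taken. Members were every gene with the prefix mt-.

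DESeq2 1.42.0 in R 4.3.3 followed the series' design text, with genotype as the only term and no batch correction, on genes with at least 10 counts in total and a Benjamini-Hochberg threshold of 0.05. Log2 fold changes are unshrunken, knockout against control. edgeR 4.0.16 (quasi-likelihood, TMM) was the alternative test. Other alternatives were TMM factors in DESeq2, size factors without the members, other count filters, a threshold of 0.1, no independent filtering, the replicate number as a block and each library left out. Both tests were tested on simulated data, with log2 fold changes larger than those of the messenger RNAs here. Recovery of changes as small as these was not tested. Members were aligned with blastn 2.17.0 to 141730 annotated transcripts, keeping alignments of at least 100 bases and 70% identity, and their 50-, 100- and 150-base windows were looked up in the transcripts of other genes.

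Members were given with 6 values for each messenger and ribosomal RNA and for transfer RNAs with a mean of at least 50 normalized counts, and the other transfer RNAs by counts or range. From each nuclear list, genes past the threshold were named, or else the 2 with the smallest p. The members and lists were chosen with earlier results of these data known. Mtres1, Prorp and Atp5md were found under the older symbols 1700021F05Rik, 1110008L16Rik and Usmg5. Same-numbered libraries did not deviate together (correlations -0.0482, -0.0587 and 0.0105 over 15811 genes), so the numbers were not treated as pairs. At the totals of 101277200 to 110243918 counts per library, counting error is small for the 6 high messenger RNAs, and it limits the transfer RNAs and the low messenger RNAs such as mt-Atp8 (88 to 141 counts) and mt-Nd4l (106 to 171).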

Additional observations from a re-analysis of the deposited data

How the results depend on the processing

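The number of members past the threshold was 0 under every alternative run except the fit without control replicate 1. It ranged from 0 to 4 over the fits that each leave out 1 library. With the replicate block it was 0, and the replicate numbers are only numbers here. Of 296 log2 fold changes under alternatives, 282 had the same sign and the same call, 4 became calls (mt-Nd1, mt-Nd2, mt-Nd4 and mt-Nd5 without control replicate 1) and 10 reversed. The cause was not tested. With single libraries left out, mt-Rnr1 ranged from -0.11 to 0.13 (-0.115 without control replicate 3), mt-Rnr2 from -0.04 to 0.0768 (-0.0420 and -0.0111 without control or knockout replicate 3) and mt-Nd6 from -0.03 to 0.0518 (-0.0266 without control replicate 1). mt-Co2 ranged from -0.26 to 0.06 and mt-Tm from -0.86 to 0.17 (0.0583 and 0.170 without control replicate 2), and mt-Tt from -0.38 to 0.01 (0.0145 without knockout replicate 1). mt-Te ranged from -0.36 to 0.42 (-0.0650 without control replicate 2, -0.363 without knockout replicate 3) and was -0.0488 with the replicate block.

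The difference in library share stayed negative in all 9 alternatives. Among protein-coding shares 81 of 83 differences moved by less than the gene's larger group SD (control or knockout). Without the genes that share sequence with chromosome 1, the difference was 0.0424 points for mt-Nd6, and it turned positive for mt-Cytb (0.385 instead of -0.122), mt-Nd1 (0.0867 instead of -0.151) and mt-Nd2 (0.127 instead of -0.0942). The genes left out included mt-Nd4 and mt-Co1, whose mean share was 29.1% in controls and 30.4% in knockouts. The 6 low genes held only 0.115% to 0.150%, and leaving them out alone was not tested. With single libraries left out, the sign of the share difference held for mt-Co1, mt-Nd4, mt-Nd5 and mt-Nd6 and reversed at least once for the other 9 genes, including mt-Cytb (0.0932) and mt-Nd1 (0.00784) without control replicate 2 and mt-Nd2 (0.179) without control replicate 3. Of 120 list counts 105 stayed within 1.5 times. Respiratory chain subunits called lower ranged from 0 to 5 with single libraries left out and were 1 with no filter on low counts, and edgeR called 0. Depth limits the transfer RNAs and the least counted messenger RNAs, mt-Atp8, mt-Nd4l and mt-Nd3.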
